A study of Homo sapiens with 33 samples.

Results

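SCC1 (UM-SCC-1) is an HNSCC cell line, and its transcriptional response to cetuximab over days 1 to 5 of exposure was measured by bulk RNA-seq. The libraries were selected by the line, treatment and day in their titles, which gave 10 of the 33 libraries of the series, 5 cetuximab-treated and 5 given PBS, with 1 library of each treatment on every day. All measured genes, not a chosen set, made up the readout. Both groups were the same unmodified line in DMEM with serum and hydrocortisone, seeded in 6-well plates, and from the day after seeding the medium was renewed daily with either 100 nM cetuximab or PBS. With 1 library per day and treatment, the 5 days stood in for replicates, so each p-value measures the spread between days and not between independent cultures.

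Cetuximab is an antibody that occupies the extracellular part of the epidermal growth factor receptor (EGFR) and keeps its ligands from binding. Ligand-bound EGFR activates the RAS, RAF, MEK and ERK cascade, and ERK switches on immediate-early transcription factors, growth factor genes and its own inhibitors, so that the mRNAs of those genes are a common readout of the pathway. In stratified squamous epithelium, EGFR activity is known to favour proliferation, migration and matrix-degrading proteases, whereas its blockade is known to favour keratinocyte differentiation.

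Total estimated counts were between 36337093 and 47225163 per library with PBS and between 37140248 and 41059275 with cetuximab. The libraries separated by treatment along the first principal component, which held 77.6% of the variance of log2 CPM (counts scaled to a fixed total after TMM normalisation), and by day along the second, with 9.32%. Sequencing did not alternate the treatments. Flow cell B held the PBS libraries of days 1 to 4, and PBS of day 5 shared flow cell A with the 5 cetuximab libraries, so for most days treatment and flow cell cannot be told apart. A second fit, called the flow-cell fit here, therefore carried the flow cell as a covariate. Its treatment effect rests on cetuximab of days 1 to 5 against PBS of day 5 alone. The PBS libraries of days 1 to 4 inform its estimate of spread and not that effect.

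All 10 squamous markers were measured, with a summed level of 2789 to 4296 CPM with PBS and 8379 to 13570 CPM with cetuximab. Of 10 immune markers, 3 passed the filter on low counts, with a sum of 2.799 to 7.37 CPM with PBS and 6.67 to 16.6 CPM with cetuximab. The defining genes PTPRC and CD3E had between 0 and 4 counts in any library. Fibroblast markers summed to 53.6 to 80.03 CPM with PBS and 109 to 244 CPM with cetuximab, and all 6 tested members rose (2 in the flow-cell fit), although COL3A1, PDGFRA, PDGFRB and THY1 had at most 16 counts. Endothelial markers summed to 9.99 to 18.1 CPM and 12.5 to 21.1 CPM, and melanocyte and neuroendocrine markers to 5.79 to 8.304 CPM and 8.597 to 11.02 CPM. In bulk RNA, fewer cells that carry a transcript and less of it per cell cannot be told apart.

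A large part of the transcriptome differed between cetuximab and PBS. Of 17984 genes tested, 8005 (44.5%) passed an adjusted p of 0.05 in edgeR's quasi-likelihood test, 4046 (22.5%) higher and 3959 (22%) lower than with PBS, and 7362 of them were on the same side of PBS on all 5 days. The change was at least 2-fold for 944 of the genes that rose and 621 of those that fell. The 5 cetuximab values did not overlap the 5 PBS values for 5616 genes (31.2%). In the flow-cell fit 4171 genes (23.2%) were called, 1943 (10.8%) higher and 2228 (12.4%) lower, and 3720 genes were called in both fits, 0 of them in opposite directions. Counts of list members below stand against these shares of all tested genes, 22.5% up and 22% down (10.8% and 12.4% in the flow-cell fit). In what follows ± after a CPM is the SD over the 5 days and ± after a log2 fold change its SE. A gene named as called with no flow-cell result given was also called in the flow-cell fit. Its log2 fold change there was within 1.5 times of the one printed.

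Among called genes whose mean log2 CPM was 3 or more, the largest rise was that of KRT13, a keratin of the suprabasal layers of mucosal squamous epithelium (GRCh37 chromosome 17, positions 39657233 to 39661957, reverse strand). It measured 74.5, 101, 126, 219 and 369 CPM on days 1 to 5 of cetuximab and 6.45, 1.698, 1.52, 1.38 and 7.004 CPM with PBS (5.63 ± 0.72 on the log2 scale, adjusted p = 0.00029). Its level was higher on every later day of cetuximab than on the day before. SERPINB13, an epithelial inhibitor of lysosomal cysteine proteases, went from 0.485 ± 0.361 to 18.2 ± 5.81 CPM (5.25 ± 0.43 on the log2 scale, adjusted p = 9e-06), and placental alkaline phosphatase ALPP from 5.92 ± 4.797 to 163 ± 82.7 CPM (4.80 ± 0.62 on the log2 scale, adjusted p = 0.00029). The lectin-like scavenger receptor OLR1 (4.66 ± 0.41), the integrin-binding matrix protein NPNT (4.00 ± 0.50), the xenobiotic-metabolising CYP1A1 (3.97 ± 0.32) and the aldo-keto reductase AKR1C2 (3.95 ± 0.57) followed by log2 fold change. KANK4, TNNT3, NUPR1, MAP2 and WNT10A, between 3.22 and 3.67, completed the 12 largest rises at that level of expression. AKR1C2 and ALPP have close paralogues whose reads may have been split between them, which leaves their own levels uncertain.

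At the same level of expression, the largest fall was that of CSF3, which encodes the granulocyte colony-stimulating factor (GRCh37 chromosome 17, positions 38171614 to 38174066, forward strand). It measured 1.26, 0.502, 0.722, 0.866 and 0.362 CPM on days 1 to 5 of cetuximab against 8.58, 19.4, 46.6, 121 and 105 CPM with PBS (-6.33 ± 0.92 on the log2 scale, adjusted p = 0.0006). PBS levels were highest on days 4 and 5, whereas no cetuximab library exceeded the lowest PBS library. The interstitial collagenase MMP1 fell from 20.2 ± 11.7 to 0.38 ± 0.228 CPM (-5.72 ± 0.74 on the log2 scale, adjusted p = 0.00024), and the gelatinase MMP9 from 137 ± 48.4 to 14.7 ± 3.16 CPM (-3.22 ± 0.28 on the log2 scale, adjusted p = 1.8e-05). VIM, the intermediate filament protein of mesenchymal cells (GRCh37 chromosome 10, positions 17270240 to 17279592, forward strand), measured 23.5, 13.6, 13.4, 8.87 and 9.34 CPM with cetuximab and 118, 224, 260, 254 and 154 CPM with PBS (-3.88 ± 0.35 on the log2 scale, adjusted p = 3e-05). Its cetuximab values were lowest on days 4 and 5, and the groups did not overlap. The arylacetamide deacetylase AADAC (-5.40 ± 0.39) and its pseudogene AADACP1 (-3.57 ± 0.32), which may share reads, the anthrax toxin receptor ANTXR2 (-3.60 ± 0.19), ANGPTL4 (-3.43 ± 0.31), DOCK4 (-3.41 ± 0.37), CXCL1 (-3.34 ± 0.46), PHLDA1 (-3.66 ± 0.28) and EGR1 (-3.64 ± 0.35) were the others among the 12 largest falls at that level.

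**Figure D1:**
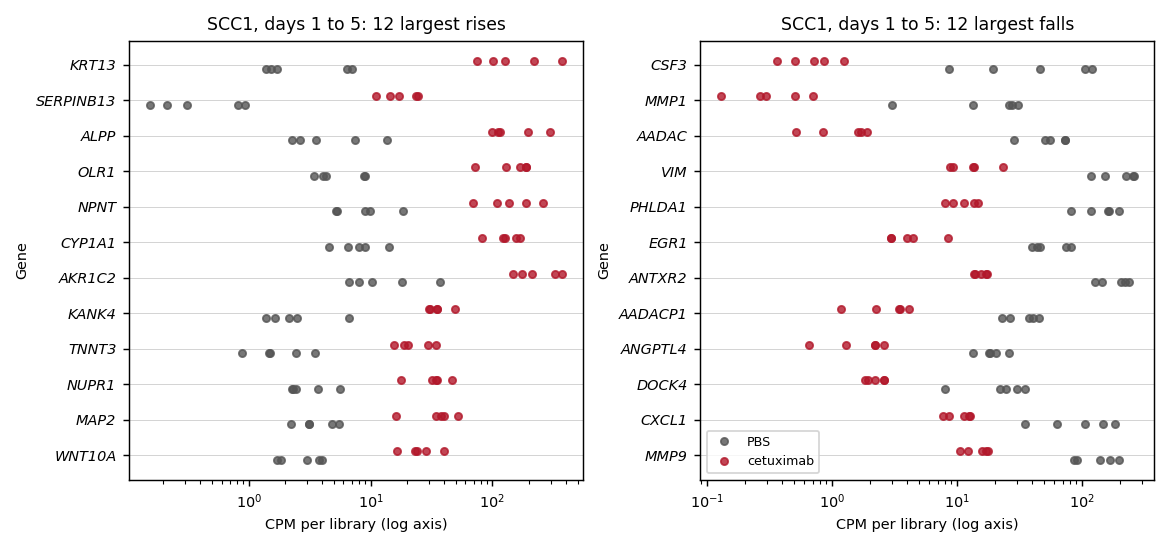
CPM on a log axis of the 12 genes with the largest rise and the 12 with the largest fall by log2 fold change, among those whose mean log2 CPM was 3 or more, 1 point per library, cetuximab-treated in red and PBS in grey (5 days each). In each of the 24 genes the red and grey points do not overlap.

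In absolute terms the largest gains in mean CPM were those of the imprinted long noncoding RNA H19 (1338 to 6418 CPM), the basal keratins KRT5 (584 to 3481 CPM) and KRT17 (546 to 3025 CPM), and the mitochondrial transcripts MT-RNR2 (3482 to 5822 CPM) and MT-CO1 (13410 to 15700 CPM). Of these, KRT17 alone was called in the flow-cell fit. The others missed it, with H19 at 2.13 (adjusted p = 0.069), KRT5 at 2.27 (adjusted p = 0.069), MT-RNR2 at 0.55 (adjusted p = 0.15) and MT-CO1 at 0.27 (adjusted p = 0.068). Among the 5 largest losses were those of ACTB (6076 to 4084 CPM), the metal-binding metallothionein MT2A (1716 to 263 CPM), the plasminogen activator inhibitor SERPINB2 (1902 to 644 CPM) and the chaperone HSPA8 (2857 to 1742 CPM). Each of these 4 fell in both fits.

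Genes that read out ERK activity fell as a group. Of 29 tested members, 20 fell and 1 rose, with a median log2 fold change of -1.69 against 0.02 for all tested genes, and in the flow-cell fit 17 fell and 0 rose. The phosphatase DUSP6, which inactivates ERK in the cytoplasm, measured 14.9, 21.5, 19.8, 14.6 and 9.83 CPM with cetuximab and 114, 188, 174, 153 and 106 CPM with PBS (-3.19 ± 0.25 on the log2 scale, adjusted p = 9e-06). All 5 cetuximab libraries lay below all 5 PBS libraries. The nuclear ERK phosphatases DUSP4 and DUSP5 fell as well, DUSP4 from 126 ± 35.2 to 19.9 ± 4.87 CPM (-2.67 ± 0.25) and DUSP5 from 95.99 ± 21.3 to 22.3 ± 2.18 CPM (-2.11 ± 0.15). Among transcriptional regulators, FOSL1, a component of the AP-1 dimer, went from 203 ± 46.2 to 31.7 ± 6.53 CPM (-2.68 ± 0.20), and the chromatin protein HMGA2 from 409.8 ± 73.4 to 55.9 ± 15.3 CPM (-2.87 ± 0.21). EGR1, an immediate-early zinc finger factor, measured 2.97, 8.41, 4.47, 3.99 and 2.95 CPM against 74.8, 81.1, 45.8, 43.6 and 40.2 CPM. CCND1, the cyclin that carries growth factor signals into the cell cycle, was at 336 ± 69.6 CPM with cetuximab and 316 ± 50.3 CPM with PBS and did not pass the test (0.09 ± 0.16 on the log2 scale, adjusted p = 0.67).

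The promoters of several of these genes hold the sequence that AP-1 binds. In RefSeq promoters (GRCh38.p14, 250 bases before to 50 after the start, 27305 in all, matched by symbol for 11149 of the tested genes), TGANTCA was found on either strand in 5 of 20 promoters of the ERK list (25%) and in 6 of 21 of the cytokine list (28.6%), against 5.13% of tested genes with a promoter and 7.76% of all promoters. It was in 1 of 12 promoters of the metalloproteinase list (8.33%) and in 5.39% of those of all genes that fell. The members of the ERK list that held it were SPRED3, SPHK1, IL11, PLAUR and EMP1, of which the first 4 fell and EMP1 was the member of the list that rose (0.98, 0.71 in the flow-cell fit, adjusted p = 0.33). A match is a stretch of letters and not a measured binding site. The promoters of the cytokine genes IL11 and CXCL8 are shown because both transcripts fell and their matches, in capitals, lie from -96 to -90 and from -137 to -131 relative to the start. They read 5′ to 3′ along the gene's strand, chr19:55370414-55370713 on the reverse strand and chr4:73740319-73740618 on the forward strand.
IL11: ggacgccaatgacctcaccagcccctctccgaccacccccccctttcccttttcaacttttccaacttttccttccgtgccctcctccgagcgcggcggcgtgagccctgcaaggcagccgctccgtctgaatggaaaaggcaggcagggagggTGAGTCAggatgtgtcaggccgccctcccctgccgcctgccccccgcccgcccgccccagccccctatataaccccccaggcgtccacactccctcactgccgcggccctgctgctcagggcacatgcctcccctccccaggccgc
CXCL8: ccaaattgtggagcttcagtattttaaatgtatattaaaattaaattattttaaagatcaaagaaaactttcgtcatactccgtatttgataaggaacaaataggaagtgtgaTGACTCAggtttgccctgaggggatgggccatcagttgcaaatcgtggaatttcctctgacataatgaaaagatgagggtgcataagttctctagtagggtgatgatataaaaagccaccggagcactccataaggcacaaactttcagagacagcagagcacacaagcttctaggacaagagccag

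Several ligands of EGFR fell while its mRNA rose. TGFA measured 64.4, 68.7, 72.8, 65.6 and 53.1 CPM on days 1 to 5 of cetuximab and 212, 259, 285, 270 and 288 CPM with PBS (-2.02 ± 0.10 on the log2 scale, adjusted p = 1.4e-07). HBEGF, a heparin-binding ligand, measured 6.62, 11.4, 13.6, 11.6 and 9.62 CPM and 37.2, 76.5, 114, 111 and 79.4 CPM (-2.98 ± 0.32 on the log2 scale, adjusted p = 7.7e-05). Neither ligand's groups overlapped, and HBEGF with PBS was lowest on day 1. Amphiregulin (AREG) went from 296 ± 52.02 to 103 ± 9.17 CPM (-1.53 ± 0.11 on the log2 scale, adjusted p = 1.8e-06) and epiregulin (EREG) from 32.9 ± 8.06 to 13.2 ± 1.95 CPM (-1.32 ± 0.17 on the log2 scale, adjusted p = 6.7e-05). Of 9 ligands of the ERBB family tested, 4 fell, all of them in the sentences above, and 3 rose. Those that rose were EGF, at 0.208 ± 0.0613 and 0.651 ± 0.121 CPM (1.62, 1.13 in the flow-cell fit, adjusted p = 0.063), and the neuregulins NRG4, at 2.22 ± 0.792 and 4.93 ± 0.721 CPM (1.15, 1.85 in the flow-cell fit, adjusted p = 0.0037), and NRG1, at 28.5 ± 8.66 and 53.04 ± 9.701 CPM (0.90, 0.80 in the flow-cell fit, adjusted p = 0.19). Neuregulins bind the sister receptors of EGFR rather than EGFR.

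EGFR itself (GRCh37 chromosome 7, positions 55086710 to 55279321, forward strand) measured 842, 860, 941, 1080 and 1085 CPM with cetuximab and 619.6, 659.6, 668, 634 and 625 CPM with PBS (0.58 ± 0.07 on the log2 scale, adjusted p = 3.4e-05). Every cetuximab value lay above every PBS value, and the highest were those of days 4 and 5. ERBB3, its kinase-impaired partner, went from 34.3 ± 3.17 to 63.5 ± 2.74 CPM (0.89 ± 0.07 on the log2 scale, adjusted p = 7.6e-07) and ERBB2 from 113 ± 2.14 to 162 ± 18.3 CPM (0.52 ± 0.07 on the log2 scale, adjusted p = 4.8e-05). Of the ubiquitin ligases that remove activated receptor, CBL fell (-0.52 ± 0.06) and CBLB rose (0.66, 0.39 in the flow-cell fit, adjusted p = 0.066), and the feedback inhibitor ERRFI1 fell (-0.51 ± 0.09). In all, 6 of 12 receptors and inhibitors rose and 2 fell (3 and 2 in the flow-cell fit). Receptor tyrosine kinases outside the family moved both ways, 8 of 23 up and 8 down. AXL, which is often studied as a bypass receptor, measured 136, 132, 114, 98.5 and 95.7 CPM with cetuximab and 227, 272, 289, 259.8 and 255 CPM with PBS (-1.18 ± 0.10 on the log2 scale, adjusted p = 4.2e-06), lower in all 5 cetuximab libraries. EPHA2 fell from 358 ± 90.7 to 111 ± 30.8 CPM (-1.69 ± 0.25) and the MSP receptor MST1R (-1.08 ± 0.09), whereas FGFR2, a receptor for stromal FGFs, rose from 7.197 ± 2.96 to 22.1 ± 3.68 CPM (1.62 ± 0.23), as did EPHB3 (1.55 ± 0.20) and FGFR3 (2.71, 2.29 in the flow-cell fit, adjusted p = 0.12).

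**Figure D2:**
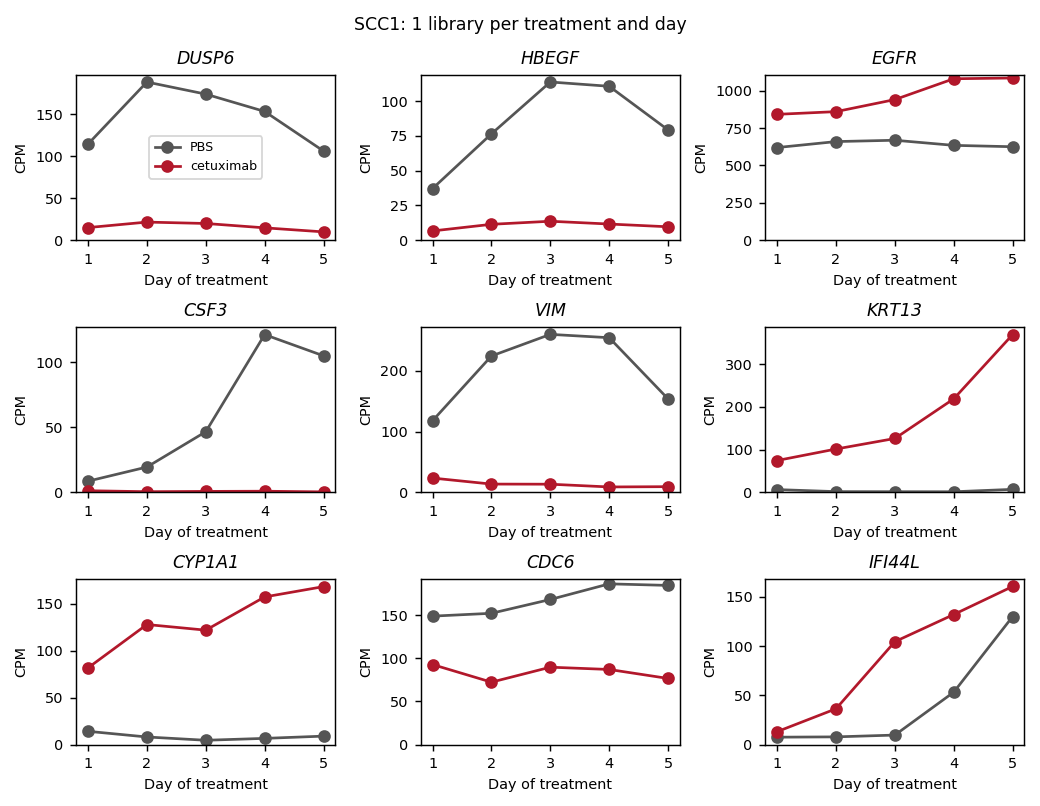
CPM (linear axis from 0) against day of treatment for 9 genes, with 1 library per point, cetuximab-treated in red and PBS in grey. Cetuximab lay below PBS on every day for DUSP6, HBEGF, CSF3, VIM and CDC6 and above it on every day for EGFR, KRT13, CYP1A1 and IFI44L, where both treatments of IFI44L climbed with the days.

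Secreted inflammatory signals were mostly lower with cetuximab. Of 27 cytokines and chemokines tested, 14 fell and 6 rose, with a median of -0.98 (16 down, 3 up and a median of -1.64 in the flow-cell fit). IL1B, a pyrogenic cytokine, measured 64.7, 87, 89.1, 68.6 and 58.95 CPM with cetuximab and 256, 499.5, 606, 736 and 729.7 CPM with PBS (-2.94 ± 0.29 on the log2 scale, adjusted p = 4.5e-05), and its PBS level was highest on days 4 and 5. The neutrophil chemokine CXCL8 measured 19.99, 24.4, 28.6, 21.9 and 14.2 CPM and 58.6, 78.1, 125, 191 and 272 CPM (-2.73 ± 0.45 on the log2 scale, adjusted p = 0.0012). It climbed over the days with PBS and not with cetuximab. The gp130 cytokines IL11 (15.7 ± 5.46 to 2.26 ± 0.575 CPM, -2.79 ± 0.27) and LIF (106 ± 45.6 to 14 ± 1.75 CPM, -2.93 ± 0.32) and the IL-10 family member IL24 (52.3 ± 14.98 to 5.98 ± 1.68 CPM, -3.13 ± 0.26) also fell. CSF2, the granulocyte-macrophage factor, was at 1.17 CPM with PBS and 0.057 CPM with cetuximab, where it had between 0 and 3 counts per library. CSF1, the macrophage factor, was higher at 58.8 ± 12.9 against 30.3 ± 3.29 CPM (0.96, 0.76 in the flow-cell fit, adjusted p = 0.08).

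Targets of the transcription factor NF-kB fell in 9 of 17 cases and rose in 2 (6 and 0 in the flow-cell fit). The ubiquitin-editing inhibitor TNFAIP3 fell from 296 ± 66.01 to 136 ± 15.8 CPM (-1.12 ± 0.15 on the log2 scale, adjusted p = 0.00015) and the adhesion molecule ICAM1 from 249 ± 59.1 to 130.4 ± 25.9 CPM (-0.93 ± 0.20 on the log2 scale, adjusted p = 0.0035), with -1.12 in the flow-cell fit. CD83 (-1.08 ± 0.12) and NFKBIZ (-0.96, -1.60 in the flow-cell fit, adjusted p = 0.0033) were lower as well. NFKBIA, which encodes the feedback inhibitor of NF-kB, was at 164 ± 17.4 CPM with cetuximab and 185 ± 26.1 CPM with PBS and did not pass (-0.17 ± 0.10 on the log2 scale, adjusted p = 0.18), and complement C3 was higher (0.88, 0.47 in the flow-cell fit, adjusted p = 0.37).

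Matrix proteases moved in both directions by gene, and so did their inhibitors. Of 24 tested, 10 fell and 7 rose, with a median of -0.25 that became 0.10 in the flow-cell fit (8 down, 1 up). Stromelysin MMP3 measured 0.919, 0.836, 0.802, 0.315 and 0.31 CPM with cetuximab and 6.28, 10.3, 13.4, 12.8 and 10.4 CPM with PBS (-4.05 ± 0.31 on the log2 scale, adjusted p = 2.2e-06). The membrane-bound ADAM19 went from 24.01 ± 5.89 to 3.301 ± 0.683 CPM (-2.86 ± 0.20) and ADAM8 from 80.1 ± 30.2 to 11.6 ± 2.94 CPM (-2.79 ± 0.34). MMP2 did not pass (-0.29 ± 0.21 on the log2 scale, adjusted p = 0.28). Of the TIMP inhibitors, TIMP1 was called lower in both fits, with 1573 to 2251 counts per PBS library and 923 to 1177 per cetuximab library. TIMP2 was called higher in both fits, and TIMP4 was not called in either. The epithelial MMP28 was higher (0.404 ± 0.145 and 3.72 ± 2.25 CPM, 3.20, 2.65 in the flow-cell fit, adjusted p = 0.055), and so was TIMP3, a matrix-bound inhibitor of these enzymes, at 74.01 ± 23.6 and 342 ± 136 CPM (2.21, 1.95 in the flow-cell fit, adjusted p = 0.061).

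In the urokinase system 6 of 11 members fell and 1 rose (3 and 1 in the flow-cell fit). Urokinase (PLAU) measured 468, 604, 674, 550.2 and 442 CPM with cetuximab and 1015, 1707, 1918, 1672 and 1193 CPM with PBS (-1.45 ± 0.19 on the log2 scale, adjusted p = 0.00017), its receptor PLAUR fell from 83.6 ± 23.5 to 21.7 ± 3.13 CPM (-1.95 ± 0.22) and its inhibitor SERPINB2 from 1902 ± 325 to 644 ± 115 CPM (-1.56 ± 0.15). The exception was S100A10, which binds plasminogen at the cell surface together with annexin A2 and rose from 321 ± 62.3 to 628 ± 67.8 CPM (0.97 ± 0.12). Among clade B serpins, intracellular protease inhibitors of epithelia, 5 of 11 fell and 3 rose, with SERPINB13 and SERPINB7 (1.19 ± 0.13) up and SERPINB8 (-0.97 ± 0.09) down.

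Of 23 genes of attachment to the basement membrane 13 fell and 7 rose (10 and 5 in the flow-cell fit). ITGA2, the collagen-binding integrin subunit, measured 149, 158, 184, 162 and 136 CPM with cetuximab and 656, 1003, 1177, 982 and 922 CPM with PBS (-2.59 ± 0.14 on the log2 scale, adjusted p = 5.4e-07). The fibronectin receptor subunit ITGA5 went from 428 ± 84.8 to 141 ± 11.03 CPM (-1.61 ± 0.13) and ITGA3 from 1371 ± 184 to 626 ± 57.9 CPM (-1.13 ± 0.09). Laminin-332 is the anchoring laminin of squamous epithelium, and its subunit LAMB3 fell (1643 ± 358 to 699.9 ± 135 CPM, -1.23 ± 0.18). The laminin subunit LAMB2 (1.36 ± 0.17) and the TGF-beta-activating integrin subunit ITGB8 (1.92 ± 0.21) rose.

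Collagens moved the other way, with 11 of 20 up, 5 down and a median of 0.72. COL5A1, which nucleates fibrils, measured 155, 169.7, 197, 227 and 305 CPM with cetuximab and 81.1, 51.9, 31.9, 29.1 and 30.7 CPM with PBS (2.23 ± 0.34 on the log2 scale, adjusted p = 0.00067). With cetuximab it was higher on each later day, and with PBS it was highest on day 1. The anchoring fibril collagen COL7A1 went from 202 ± 76.7 to 686 ± 109 CPM (1.77 ± 0.25), COL1A1 from 17.97 ± 4.37 to 58.99 ± 23.9 CPM (1.72 ± 0.29) and COL1A2 from 9.597 ± 2.302 to 38.9 ± 15.5 CPM (2.02, 1.99 in the flow-cell fit, adjusted p = 0.059). The beaded-filament collagens COL6A1 (-1.48 ± 0.18) and COL6A2 (-1.81 ± 0.26) fell. COL1A1 and COL1A2 belong to the fibroblast markers whose sums are given above, and the part of such cells in the collagen values was not tested.

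Keratins rose in 10 of 17 cases and fell in 3, with a median of 1.13. KRT14, the basal partner of KRT5, measured 714, 853, 875, 938 and 1086 CPM with cetuximab and 392, 266, 183, 157 and 246 CPM with PBS (1.84 ± 0.24 on the log2 scale, adjusted p = 0.00022). KRT17, a keratin of activated epidermis, went from 546 ± 201 to 3025 ± 1094 CPM (2.47 ± 0.33) and KRT15, another basal keratin, from 5.75 ± 0.77 to 32.1 ± 11.4 CPM (2.48 ± 0.22). The wound keratins KRT6A (147 ± 53.5 and 986 ± 517 CPM, 2.75, 2.29 in the flow-cell fit, adjusted p = 0.094) and KRT16 (1.86, 1.15 in the flow-cell fit, adjusted p = 0.12) were higher. KRT18, a keratin of simple epithelia, fell from 1008 ± 199.5 to 442 ± 15.6 CPM (-1.19 ± 0.12). Other keratins of simple epithelia did not all follow it. KRT7 and KRT19 were called higher in both fits, and KRT8 was called lower but not in the flow-cell fit. Type I and type II keratins have near-identical relatives and pseudogenes, so their separate levels are uncertain.

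Of 15 genes of desmosomes and adherens junctions 9 rose and 3 fell. The desmosomal plaque protein PKP1 measured 120.5, 146, 169.6, 225 and 296 CPM with cetuximab and 38.4, 28.9, 24.6, 19.2 and 22.3 CPM with PBS (2.84 ± 0.29 on the log2 scale, adjusted p = 5.2e-05), the desmosomal cadherin DSG3 122, 167, 222, 271 and 298 CPM and 56.9, 39.6, 42.9, 43.5 and 66.8 CPM (2.11 ± 0.26 on the log2 scale, adjusted p = 0.00017). Both were higher on each later day of cetuximab, and the groups did not overlap. PERP (299 ± 52.3 to 976 ± 216 CPM, 1.71 ± 0.17), DSC3 (81.2 ± 18.2 to 168 ± 10.1 CPM, 1.05 ± 0.12) and E-cadherin (CDH1, 120.1 ± 17.1 to 238 ± 28.8 CPM, 0.98 ± 0.10) also rose, while PKP2 (-0.61 ± 0.08) and DSG2 (-0.26 ± 0.06) fell. In the tight junction list 7 of 16 rose and 3 fell (2 and 1 in the flow-cell fit). CLDN1 was at 1.30 (0.81 in the flow-cell fit, adjusted p = 0.27) and F11R at 0.34 ± 0.05.

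Terminal differentiation was only partly measured, since 15 of 43 cornified envelope genes passed the filter, of which 6 rose and 2 fell (3 and 1 in the flow-cell fit). Those that rose included HRNR, at 0.621 ± 0.395 and 3.49 ± 0.305 CPM (2.51 ± 0.29), and the plakin PPL, at 48.4 ± 4.63 and 113 ± 25.9 CPM (1.23 ± 0.14). The cross-linking enzyme TGM1 was at 2.32 ± 0.655 and 9.02 ± 3.84 CPM (1.96, 1.53 in the flow-cell fit, adjusted p = 0.083). The classical envelope precursor IVL was at 0.302 ± 0.118 and 0.506 ± 0.496 CPM and did not pass (0.74 ± 0.59 on the log2 scale, adjusted p = 0.33), and S100A9, a calcium-binding alarmin, fell (-1.33 ± 0.29). Squamous transcription factors rose in 9 of 20 cases and fell in 3 (4 and 3 in the flow-cell fit). GRHL2, which maintains epithelial junction genes, rose from 45.3 ± 6.19 to 78.9 ± 2.69 CPM (0.80 ± 0.08) and TFAP2C from 7.82 ± 1.302 to 16.8 ± 1.49 CPM (1.10 ± 0.11). The basal master regulator TP63 was at 119 ± 20.2 and 172 ± 16.1 CPM (0.53, 0.46 in the flow-cell fit, adjusted p = 0.12), and PRDM1 (-2.30 ± 0.19), EHF (-1.38 ± 0.19) and TP73 (-1.15 ± 0.19) fell. TFAP2A, the related AP-2 factor, measured 108, 114, 113, 111 and 109 CPM with cetuximab and 108, 100.2, 106, 109 and 99.2 CPM with PBS. It did not pass (0.09 ± 0.05 on the log2 scale, adjusted p = 0.11) and was not called in the flow-cell fit, although cetuximab was the higher on 5 of 5 days. The test passed when libraries were scaled by their totals (0.145, adjusted p = 0.0219). That scaling also moved the median log2 fold change of all tested genes from 0.021 to 0.073.

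EMT factors and mesenchymal markers were mixed, with 8 of 17 down and 5 up (7 and 2 in the flow-cell fit). Besides VIM, the hyaluronan receptor CD44 fell from 627 ± 42.6 to 314 ± 15.4 CPM (-1.0 ± 0.06 on the log2 scale, adjusted p = 2.2e-07), SNAI1, a repressor of E-cadherin, from 2.704 ± 0.638 to 1.36 ± 0.331 CPM (-0.99 ± 0.21), and ZEB1, another such repressor, from 2.84 ± 0.56 to 0.639 ± 0.203 CPM (-2.15 ± 0.23). N-cadherin (CDH2) was at 29.8 ± 5.11 and 30.6 ± 1.86 CPM (0.04 ± 0.10 on the log2 scale, adjusted p = 0.78). Against these, the matricellular protein SPARC rose from 170.4 ± 36.2 to 658 ± 147 CPM (1.95 ± 0.19 on the log2 scale, adjusted p = 2.3e-05) and S100A4 from 4.09 ± 0.567 to 7.39 ± 0.992 CPM (0.85 ± 0.13). Relatives of SNAI1 and ZEB1 did not fall with them. SNAI2, with 4204 to 5367 counts per PBS library and 4386 to 4923 per cetuximab library, and ZEB2 were not called in either fit. The EMT factor TWIST1 was called higher, but not in the flow-cell fit. Of 24 cytoskeletal genes 12 fell, with smooth muscle actin ACTA2 (-1.18 ± 0.15) and CNN3 (-0.74 ± 0.07) among them, and 6 rose, with TPM1 (1.37 ± 0.18) and MYL9 (1.26 ± 0.10) among them.

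**Figure D3:**
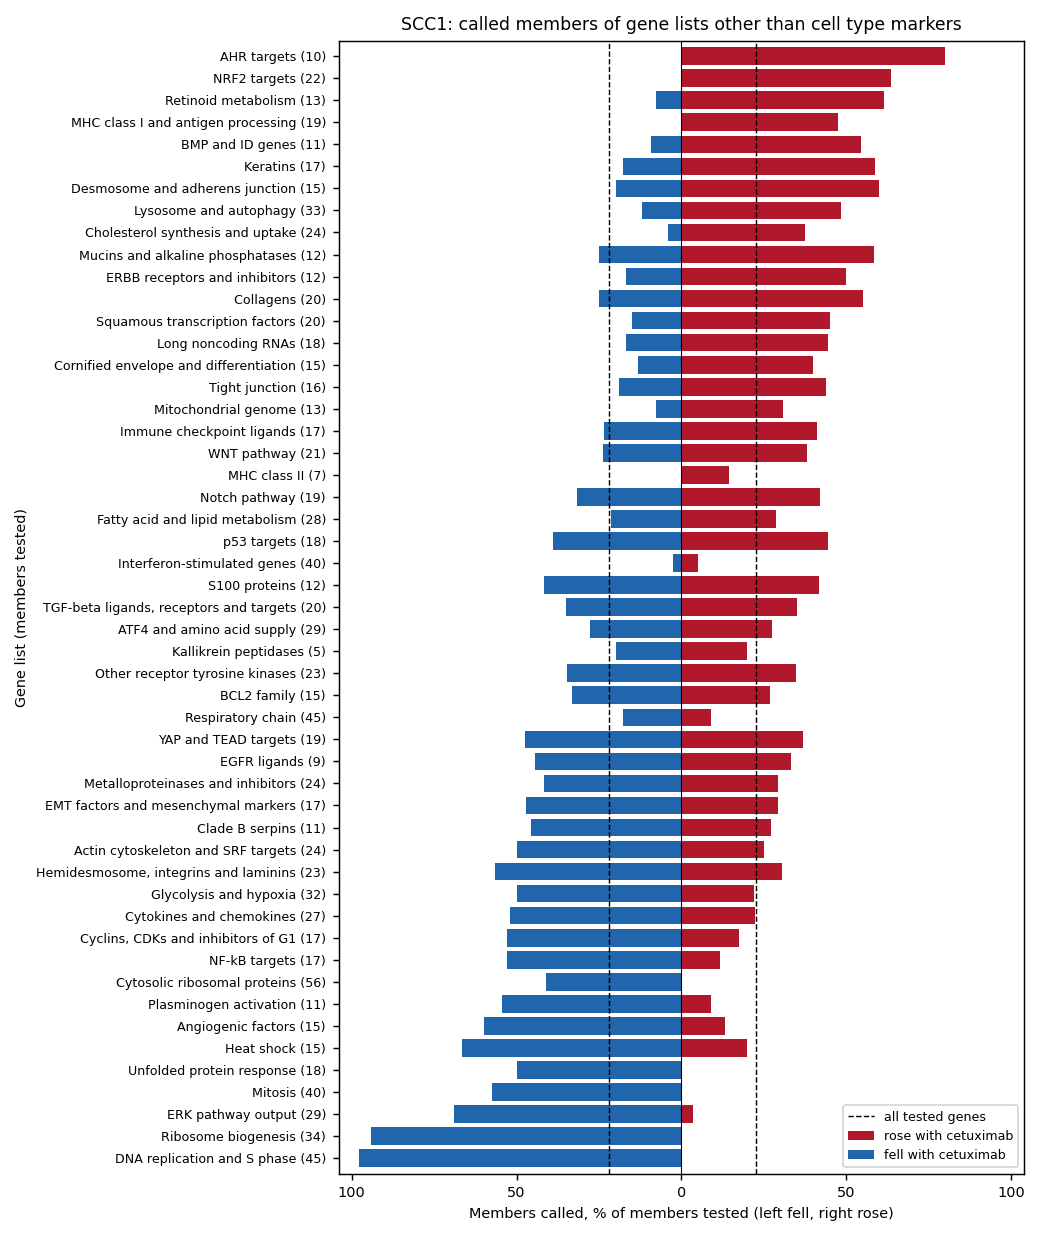
Share of the tested members of each gene list, cell type markers left out, that rose (red, right) or fell (blue, left) at an adjusted p under 0.05, in percent, with the number of members tested in parentheses and the shares over all tested genes as dashed lines (22.5% up, 22% down). DNA replication and ribosome biogenesis fell almost throughout, and of the lists drawn, AHR and NRF2 targets held the highest shares of rises.

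Genes of DNA replication fell almost throughout. Of 45 genes tested, 44 fell and 0 rose, with a median of -0.63, and 40 fell in the flow-cell fit with a median of -0.69. For 43 of them the 2 groups of libraries did not overlap. The origin licensing factor CDC6 measured 92.6, 72.2, 89.6, 86.9 and 76.5 CPM with cetuximab and 149, 152, 168, 186 and 184 CPM with PBS (-1.006 ± 0.09 on the log2 scale, adjusted p = 1.9e-06). RRM2, the regulated subunit of ribonucleotide reductase, measured 209, 169.8, 197, 179.7 and 169.9 CPM and 377, 329, 373, 408 and 375 CPM (-1.010 ± 0.07 on the log2 scale, adjusted p = 6.4e-07). Both were lower on every day, and the groups did not overlap. The replication checkpoint mediator CLSPN went from 90.5 ± 7.32 to 44.8 ± 5.02 CPM (-1.014 ± 0.08), CDT1 from 50.8 ± 9.21 to 27.1 ± 3.73 CPM (-0.91 ± 0.13) and the helicase subunit MCM2 from 225 ± 10.7 to 146 ± 15.01 CPM (-0.63 ± 0.07).

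E2F factors drive these genes at the G1/S boundary. TTTNNCGC, an E2F motif, was found on either strand in 25 of 40 promoters of this list (62.5%). It was in 10.2% of the tested genes with a promoter, 12.6% of those that fell and 8.82% (3 of 34) of the mitosis list. The promoters of CDC6 (chr17:40287629-40287928, forward strand) and CLSPN (chr1:35769929-35770228, reverse strand), from RefSeq on GRCh38.p14, are shown for their matches close to the start, from 7 to 14 in CDC6 and, on the opposite strand, from -5 to 2 in CLSPN.
CDC6: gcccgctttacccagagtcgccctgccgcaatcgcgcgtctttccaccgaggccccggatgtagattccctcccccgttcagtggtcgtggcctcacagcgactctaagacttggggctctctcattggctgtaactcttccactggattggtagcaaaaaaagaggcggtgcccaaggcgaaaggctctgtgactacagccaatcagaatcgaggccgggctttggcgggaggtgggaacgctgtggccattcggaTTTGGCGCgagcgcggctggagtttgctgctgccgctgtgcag
CLSPN: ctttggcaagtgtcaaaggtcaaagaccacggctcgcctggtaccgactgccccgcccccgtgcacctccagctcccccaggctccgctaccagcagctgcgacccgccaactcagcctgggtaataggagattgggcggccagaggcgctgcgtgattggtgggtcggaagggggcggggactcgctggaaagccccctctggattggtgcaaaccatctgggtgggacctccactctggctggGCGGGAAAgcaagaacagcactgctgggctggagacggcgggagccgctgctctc

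Of 40 mitotic genes tested, 23 fell and 0 rose, with a median of -0.43, and 10 fell in the flow-cell fit, whereas 37 fell when days were matched. The kinase AURKB went from 50.02 ± 3.67 to 28.6 ± 3.23 CPM (-0.81 ± 0.08), the kinetochore protein NUF2 from 26.5 ± 1.92 to 16 ± 3.25 CPM (-0.73 ± 0.12) and CDK1 from 145 ± 19.7 to 97.2 ± 10.1 CPM (-0.58 ± 0.10). The proliferation marker MKI67 measured 375, 289, 258, 246 and 245 CPM with cetuximab and 504, 444, 379, 445 and 423 CPM with PBS (-0.64, -0.58 in the flow-cell fit, adjusted p = 0.069). The median change of the mitotic list was -0.34 on day 1 and -0.69 on day 5, and that of the replication list -0.49 and -0.84. The cell-cycle inhibitor CDKN2B, which binds CDK4 and CDK6, measured 41.96, 59.01, 60.5, 65.4 and 69.9 CPM with cetuximab and 15.8, 15.4, 16.5, 16.5 and 17.7 CPM with PBS (1.86 ± 0.12 on the log2 scale, adjusted p = 4e-07), higher in every cetuximab library. Of 17 G1 regulators 3 rose and 9 fell. CCND2 fell from 85 ± 13.9 to 38.1 ± 4.46 CPM (-1.16 ± 0.12) and the phosphatase CDC25A from 40.6 ± 5.28 to 20.6 ± 1.59 CPM (-0.98 ± 0.09).

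Of 15 BCL2 family genes 4 rose and 5 fell (1 and 2 in the flow-cell fit). BMF, a BH3-only activator of apoptosis, measured 39.7, 30.9, 23.9, 24.3 and 24.6 CPM with cetuximab and 10.7, 5.98, 5.33, 7.4 and 5.64 CPM with PBS (2.04 ± 0.21 on the log2 scale, adjusted p = 2.4e-05), higher in every cetuximab library, and HRK, of the same class, was at 1.18 ± 0.364 and 5.896 ± 3.35 CPM (2.31, 1.71 in the flow-cell fit, adjusted p = 0.13). The survival factor BCL2L1 fell from 192 ± 26.9 to 119 ± 15.6 CPM (-0.69 ± 0.11) and the BH3-only PMAIP1 (-0.77 ± 0.16). The shares of the BCL2 family list were 26.7% up and 33.3% down. For a list of 15 genes they differ little from those of all tested genes (22.5% and 22%). Among p53 targets 8 of 18 rose and 7 fell (7 and 2 in the flow-cell fit), with BTG2 (1.44 ± 0.15) and TP53INP1 (1.09 ± 0.12) up, GDF15 (-1.19 ± 0.21) down and CDKN1A at -0.73 (-0.48 in the flow-cell fit, adjusted p = 0.32).

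Ribosome biogenesis, a MYC-driven nucleolar programme, fell in 32 of 34 genes and rose in 0, by a small median of -0.30 (17 down in the flow-cell fit). LYAR, a nucleolar regulator, went from 65.2 ± 5.78 to 36.5 ± 3.04 CPM (-0.84 ± 0.07 on the log2 scale, adjusted p = 2.8e-06), nucleophosmin NPM1 from 1278 ± 48.99 to 938 ± 83.9 CPM (-0.45 ± 0.06), the RNA polymerase I subunit POLR1E from 45.8 ± 1.95 to 27.7 ± 1.59 CPM (-0.73 ± 0.06) and the methyltransferase FBL from 77.1 ± 2.26 to 56.7 ± 5.07 CPM (-0.44 ± 0.06). MYC went from 159 ± 25.5 to 88.7 ± 13.6 CPM (-0.84 ± 0.13). The E-box CACGTG, which MYC binds, was in 11 of 27 promoters of the ribosome biogenesis list (40.7%). It was in 9.88% of tested genes with a promoter and in 10.1% of those that fell. Cytosolic ribosomal proteins fell in 23 of 56 cases with a median of -0.12, and in 4 in the flow-cell fit.

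Heat shock genes, which encode chaperones of the cytosol and of mitochondria and a transcription factor, fell in 10 of 15 cases and rose in 3 (7 and 1 in the flow-cell fit). HSP90AA1 measured 1604, 1552, 1500, 1321 and 1300 CPM with cetuximab and 2243, 2349, 2464, 2433 and 2605 CPM with PBS (-0.73 ± 0.07 on the log2 scale, adjusted p = 3.5e-06), and HSPA8 fell from 2857 ± 138 to 1742 ± 147 CPM (-0.71 ± 0.06) and HSPH1 from 448 ± 14.8 to 281 ± 23.5 CPM (-0.67 ± 0.06). The small heat shock protein CRYAB rose from 0.664 ± 0.0875 to 5.68 ± 2.16 CPM (3.09 ± 0.26). In the unfolded protein response of the endoplasmic reticulum 9 of 18 genes fell and 0 rose, and as many fell in the flow-cell fit. They included the stress sensor ERN1 (-0.79 ± 0.11) and MANF (-0.55 ± 0.09), while the chaperone HSPA5 was at 1610 ± 283 and 1330 ± 139.9 CPM (-0.28 ± 0.11 on the log2 scale, adjusted p = 0.062).

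Detoxification enzymes rose. Of 22 targets of NRF2, a transcription factor of the oxidative stress response, 14 rose and 0 fell, with a median of 0.62 (13 up and a median of 0.98 in the flow-cell fit). GCLC, the catalytic subunit for the rate-limiting step of glutathione synthesis, measured 209, 237, 238, 213 and 177 CPM with cetuximab and 104, 78.9, 81.2, 79.95 and 88.4 CPM with PBS (1.31 ± 0.10 on the log2 scale, adjusted p = 9.4e-07). The aldo-keto reductase AKR1B10 went from 0.429 ± 0.103 to 7.82 ± 2.38 CPM (4.19 ± 0.27) and AKR1C3 from 35.1 ± 10.99 to 166 ± 58.3 CPM (2.24 ± 0.30). NQO1, a standard NRF2 reporter gene, was at 628 ± 134 and 858 ± 189 CPM, higher on 5 of 5 days, and did not pass (0.45 ± 0.18 on the log2 scale, adjusted p = 0.074). HMOX1 was at 76.8 ± 21.3 and 67.2 ± 22.4 CPM (-0.19 ± 0.28 on the log2 scale, adjusted p = 0.62). The antioxidant response motif TGACNNNGC was in 5 of 16 promoters of the list (31.2%), in 15.1% of tested genes with a promoter and in 13.9% of those that rose. A stretch that fits both this motif and the AP-1 motif was counted under each.

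Targets of the aryl hydrocarbon receptor, a ligand-activated sensor of dioxins and tryptophan products, rose in 8 of 10 cases with a median of 1.21 (6 up, 1 down in the flow-cell fit). CYP1A1 measured 81.7, 128, 122, 157 and 168 CPM with cetuximab and 14.1, 8.06, 4.56, 6.57 and 8.96 CPM with PBS (3.97 ± 0.32 on the log2 scale, adjusted p = 1.4e-05). CYP1B1 measured 247, 413, 459, 472 and 345 CPM and 111, 67.4, 52.7, 72.9 and 73.2 CPM (2.36 ± 0.24 on the log2 scale, adjusted p = 4.1e-05). The receptor's repressor AHRR measured 12.9, 13.5, 12.9, 12.4 and 13.4 CPM and 5.16, 4.33, 3.94, 4.43 and 4.39 CPM (1.55 ± 0.09 on the log2 scale, adjusted p = 2.2e-07). For these 3 genes no cetuximab value overlapped a PBS value, and AHRR with cetuximab stayed within 12.4 to 13.5 CPM. The receptor's own mRNA (AHR) went from 43.5 ± 3.34 to 68.2 ± 7.13 CPM (0.65 ± 0.08), ALDH3A1 from 3.44 ± 0.393 to 10.8 ± 1.71 CPM (1.65 ± 0.13) and the glucuronosyltransferase UGT1A6 from 3.87 ± 1.94 to 35.7 ± 9.59 CPM (3.21 ± 0.34). The receptor's core motif TNGCGTG was in 7.33% of tested genes with a promoter and in 6.28% of those that rose. In the list it was in 3 of 8 promoters (37.5%), those of AHRR, UGT1A6 and NQO1, of which NQO1 was not called. That of UGT1A6 (chr2:233691452-233691751, forward strand, RefSeq, GRCh38.p14) is shown with the match from -202 to -196 in capitals. UGT1A6 shares exons with the other genes of its locus, which makes its level uncertain.
UGT1A6: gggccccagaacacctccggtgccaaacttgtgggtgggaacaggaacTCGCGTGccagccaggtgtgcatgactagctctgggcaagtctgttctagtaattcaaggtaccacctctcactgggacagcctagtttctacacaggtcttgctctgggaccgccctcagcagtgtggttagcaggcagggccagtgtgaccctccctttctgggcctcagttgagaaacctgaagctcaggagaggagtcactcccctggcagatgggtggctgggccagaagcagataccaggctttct

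Retinoid genes rose in 8 of 13 cases and fell in 1, a balance that was 3 to 3 in the flow-cell fit. The receptors RARG (20.1 ± 3.05 to 49.2 ± 9.77 CPM, 1.29 ± 0.14) and RXRA (61.96 ± 8.86 to 116 ± 8.67 CPM, 0.90 ± 0.09) rose and transglutaminase TGM2 fell (114 ± 29.7 to 32.9 ± 7.195 CPM, -1.79 ± 0.22). Lysosome and autophagy genes rose in 16 of 33 cases and fell in 4 (9 and 2 in the flow-cell fit). GABARAPL1, a coat protein of autophagosomes, measured 115, 153, 167, 175 and 169 CPM with cetuximab and 45.99, 42.9, 47.4, 51.9 and 54.4 CPM with PBS (1.68 ± 0.11 on the log2 scale, adjusted p = 6.4e-07), and the lysosomal protease CTSD went from 319.6 ± 28.3 to 653 ± 158 CPM (1.03 ± 0.14). Glycolytic and hypoxia genes fell in 16 of 32 cases and rose in 7, with ENO2 (-1.20 ± 0.17) down and the glucose transporter SLC2A1 (0.69 ± 0.08) and carbonic anhydrase CA12 (1.83 ± 0.25) up.

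Cholesterol synthesis genes rose in 9 of 24 cases and fell in 1 (3 and 1 in the flow-cell fit). The synthase LSS was at 0.59 ± 0.06. Fatty acid genes were split, 8 up and 6 down of 28 (4 and 4 in the flow-cell fit). Their shares, 28.6% and 21.4%, were near those of all tested genes (22.5% and 22%). The ligase ACSL1 rose (1.02 ± 0.09) and the lipoxygenase ALOXE3 fell (-1.51 ± 0.17). In the integrated stress response 8 of 29 rose and 8 fell (6 and 3 in the flow-cell fit), 27.6% each way and so also near the shares of all tested genes. The subunits of the leucine transporter, SLC7A5 (2146 ± 385 to 3639 ± 239 CPM, 0.76 ± 0.10) and SLC3A2 (654 ± 98.7 to 1054 ± 50.8 CPM, 0.69 ± 0.09), rose together. Of 45 nuclear-encoded respiratory chain genes 4 rose and 8 fell (2 and 1 in the flow-cell fit). SDHA, the flavoprotein of complex II, was at -0.56 ± 0.07. Of 13 transcripts of the mitochondrial genome 4 rose and 1 fell (2 and 0 in the flow-cell fit). Scaled by library totals without TMM, they summed to 38830 to 42970 CPM with PBS and 43870 to 48910 CPM with cetuximab. TMM factors were 0.962 to 1.008 with PBS and 1.006 to 1.047 with cetuximab. The gap between these sums would therefore be narrower with TMM, and their separation depends on the scaling.

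In the TGF-beta axis 7 of 20 genes rose and 7 fell (4 and 4 in the flow-cell fit). The ligand TGFB2 measured 9.72, 10.9, 17.5, 19.99 and 18.8 CPM with cetuximab and 3.39, 2.13, 2.16, 1.81 and 2.64 CPM with PBS (2.67 ± 0.24 on the log2 scale, adjusted p = 6.5e-06), while TGFB1 was lower at 35.9 ± 2.56 against 76.3 ± 21.98 CPM (-1.09, -0.39 in the flow-cell fit, adjusted p = 0.19). The co-receptor TGFBR3 rose (1.23 ± 0.14) and the signalling receptor TGFBR2 (-0.89 ± 0.07) and the activin subunit INHBA (-1.19 ± 0.13) fell. Of 11 BMP genes 6 rose and 1 fell (2 and 1 in the flow-cell fit). The exception was the secreted BMP antagonist GREM1, which measured 18.8, 14.4, 11.3, 8.61 and 7.35 CPM with cetuximab and 52.02, 58.2, 68.5, 67.6 and 64.2 CPM with PBS (-2.36 ± 0.23 on the log2 scale, adjusted p = 3.1e-05), whereas the ligand BMP2 rose from 3.59 ± 0.21 to 7.38 ± 0.843 CPM (1.04 ± 0.10). The BMP-induced inhibitor of differentiation ID3 was at 43.8 ± 9.66 and 123 ± 51.1 CPM (1.49, 1.03 in the flow-cell fit, adjusted p = 0.21).

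YAP and TEAD targets were divided, 7 up and 9 down of 19 (2 and 10 in the flow-cell fit). NT5E, the ectonucleotidase that makes adenosine, measured 44.7, 45.99, 42.3, 28.2 and 21.9 CPM with cetuximab and 232, 355, 373, 377 and 317 CPM with PBS (-3.17 ± 0.24 on the log2 scale, adjusted p = 7.7e-06), and the matricellular CTGF fell from 222 ± 12.6 to 116 ± 15.9 CPM (-0.94 ± 0.09), whereas AJUBA, a LIM-domain protein of the Hippo pathway, rose (1.24 ± 0.16). In the Notch pathway 8 of 19 genes rose and 6 fell (6 and 3 in the flow-cell fit). Ligands differed, with DLL1 (7.53 ± 1.58 to 18.9 ± 4.25 CPM, 1.33 ± 0.17) and JAG2 (21.4 ± 4.46 to 52.3 ± 10.4 CPM, 1.29 ± 0.16) up and DLL4 at 3.54 CPM with PBS and 0.254 CPM with cetuximab, where it had 6 to 14 counts per library. The receptor-modifying LFNG rose from 2.65 ± 1.14 to 14.8 ± 3.99 CPM (2.49 ± 0.28) and the target HES2 from 1.58 ± 0.412 to 10.2 ± 4.82 CPM (2.69 ± 0.34). In the WNT pathway 8 of 21 rose and 5 fell, the ligand WNT10A up from 2.86 ± 1.05 to 26.5 ± 8.87 CPM and WNT7A down from 33.9 ± 9.47 to 13.03 ± 1.22 CPM (-1.38, -0.82 in the flow-cell fit, adjusted p = 0.024). The inhibitor RNF43 rose (1.009 ± 0.13) and the transcription factor TCF7 fell (-1.62 ± 0.17).

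Signals to blood vessels fell in 9 of 15 cases and rose in 2, with a median of -0.91. VEGFA measured 86.8, 131, 161, 135 and 114 CPM with cetuximab and 268, 354, 352, 353 and 289 CPM with PBS (-1.36 ± 0.15 on the log2 scale, adjusted p = 4.2e-05), and its co-receptor NRP1 fell from 44.2 ± 8.41 to 6.94 ± 1.65 CPM (-2.67 ± 0.18). The guidance factor SEMA3A (-2.13 ± 0.29) and placental growth factor PGF (-1.87 ± 0.21) also fell. ESM1, a proteoglycan of activated endothelium, had 116 to 880 counts in the PBS libraries and 0 counts in all 5 cetuximab libraries. With a floor of 3 counts per cetuximab library it was at least 153-fold lower. The median of the list does not depend on that floor, since ESM1 stays below the median under it.

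Few interferon-stimulated genes passed the test over the whole time course, 2 of 40 up and 1 down. Their summed level was 2235, 2880, 4682, 5270 and 5801 CPM on days 1 to 5 of cetuximab and 1769, 1725, 1988, 4012 and 5865 CPM with PBS. It climbed in both arms, from day 2 with cetuximab and from day 4 with PBS, so that the median daily log2 ratio was 0.44, 0.80, 1.22, 0.39 and -0.08. IFI44L measured 13.1, 36.4, 105, 132 and 161 CPM with cetuximab and 7.49, 7.796, 9.62, 53.2 and 130.1 CPM with PBS (1.10 ± 1.0 on the log2 scale, adjusted p = 0.41), and MX1, an antiviral GTPase, 62.9, 98.9, 211, 242 and 283 CPM and 46.04, 39.7, 60.9, 183 and 298 CPM (0.52 ± 0.68 on the log2 scale, adjusted p = 0.58). With days matched, 15 members were called higher. In the flow-cell fit the median was -0.54, against 0.45 without it. IRF1 rose in both fits (27.3 ± 2.95 to 41.4 ± 2.76 CPM, 0.60 ± 0.08 on the log2 scale, adjusted p = 4.7e-05).

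Of 19 genes of MHC class I presentation 9 rose and 0 fell, with 0 called in the flow-cell fit and 14 higher when days were matched. PSMB10, a subunit of the immunoproteasome, was at 23.9 ± 1.94 and 38.8 ± 7.85 CPM (0.70, 0.59 in the flow-cell fit, adjusted p = 0.091). Of 7 class II genes only HLA-DMA rose (3.94 ± 0.791 to 7.72 ± 0.851 CPM, 0.97 ± 0.14). Checkpoint ligands were split, 7 up and 4 down of 17 (4 and 4 in the flow-cell fit). CD274, which encodes PD-L1, measured 7.37, 8.62, 9.89, 8.39 and 7.86 CPM with cetuximab and 25.9, 31.7, 40.3, 39.4 and 61.04 CPM with PBS (-2.24 ± 0.21 on the log2 scale, adjusted p = 1.2e-05), lower in every cetuximab library. VTCN1, which encodes B7-H4, measured 1.84, 2.75, 3.66, 7.24 and 13.01 CPM and 0.0546, 0.0717, 0.0881, 0.119 and 0.25 CPM (5.55 ± 0.73 on the log2 scale, adjusted p = 0.00018), with 2 to 11 counts per PBS library and 76 to 503 per cetuximab library. The NKG2D ligands RAET1G (1.22 ± 0.18) and ULBP2 (-0.61 ± 0.09) moved in opposite directions.

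Of 12 mucins and apical enzymes 7 rose and 3 fell (2 and 2 in the flow-cell fit). MUC1 measured 11.3, 12.9, 21.8, 36.5 and 60.2 CPM with cetuximab and 3.28, 2.85, 3.85, 8.09 and 9.35 CPM with PBS (2.37, 1.61 in the flow-cell fit, adjusted p = 0.32). MUC16 was at 28.3 ± 11.1 and 95.5 ± 41.2 CPM (1.75, 1.02 in the flow-cell fit, adjusted p = 0.23). S100 genes were even, 5 up and 5 down of 12 (3 and 2 in the flow-cell fit), as with S100A14 (0.51 ± 0.06) and S100A13 (-0.66 ± 0.07). Of 5 tested kallikreins 1 rose and 1 fell, 0 of them in the flow-cell fit. Among 18 long noncoding RNAs 8 rose and 3 fell (1 and 3 in the flow-cell fit). TINCR, which binds differentiation mRNAs in keratinocytes, measured 7.62, 10.2, 13.2, 18.5 and 31.1 CPM with cetuximab and 1.75, 1.96, 1.78, 1.98 and 4.87 CPM with PBS (2.70, 1.73 in the flow-cell fit, adjusted p = 0.11). MIR31HG (6.79 ± 1.57 to 1.28 ± 0.296 CPM, -2.40 ± 0.20) and UCA1 (129 ± 43.3 to 67.2 ± 9.71 CPM, -0.95, -1.41 in the flow-cell fit, adjusted p = 0.012) fell, and NEAT1 was at 279.8 ± 65.2 and 279.6 ± 102 CPM (-0.00 ± 0.24 on the log2 scale, adjusted p = 1).

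Differences were present on day 1, and their median size was larger on each later day. Over the 10200 genes whose mean log2 CPM was 3 or more, the median absolute log2 ratio of cetuximab to PBS on the same day was 0.176, 0.220, 0.236, 0.260 and 0.274 on days 1 to 5. With 1 library per treatment and day, spread between libraries also enters this median. PBS of day 5 shared the flow cell of the cetuximab libraries, and PBS of days 1 to 4 did not. Between days 4 and 5, a change over time therefore cannot be told apart from the change of flow cell. This holds for the ratios and for the PBS levels. By day 1 the median ratio was -1.28 for ERK output, 1.14 for AHR targets, 0.93 for keratins and -0.49 for DNA replication. Not every list moved further from 0. ERK output was at -1.80 on day 3 and -1.425 on day 5, and AHR targets were at 1.30 on day 5. Cytokines had medians of -0.67, -0.37, -0.14, -1.35 and -1.96, with the widest gaps on days 4 and 5. Collagens went from 0.28 on day 1 to 0.85 on day 5. PBS cultures changed over the days too. KRT5 with PBS was 1122, 439.9, 298, 333 and 724 CPM and H19 2350, 1242, 814, 819.5 and 1462 CPM, in both cases lowest on days 3 and 4, while with cetuximab KRT5 was 3462, 3318, 3069, 3572 and 3986 CPM and H19 5074, 5182, 5422, 6479 and 9931 CPM.

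**Figure D4:**
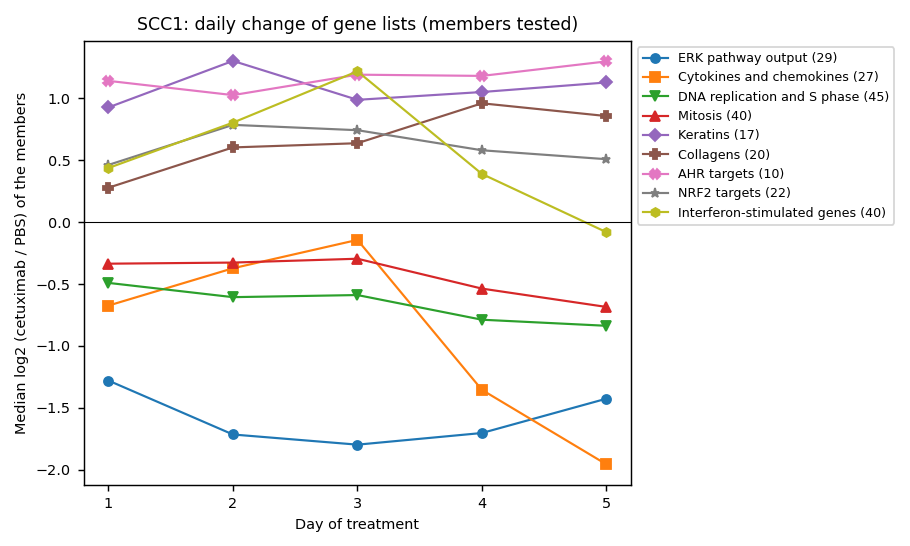
Median log2 ratio of cetuximab to PBS on the same day over the tested members of 9 gene lists (number in parentheses), by day of treatment. ERK output, DNA replication and mitosis stayed below 0 on all 5 days, AHR targets, keratins, collagens and NRF2 targets stayed above 0, and interferon-stimulated genes went from 1.22 on day 3 to -0.08 on day 5. Only on day 5 did PBS share the flow cell of the cetuximab libraries.

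**Figure D5:**
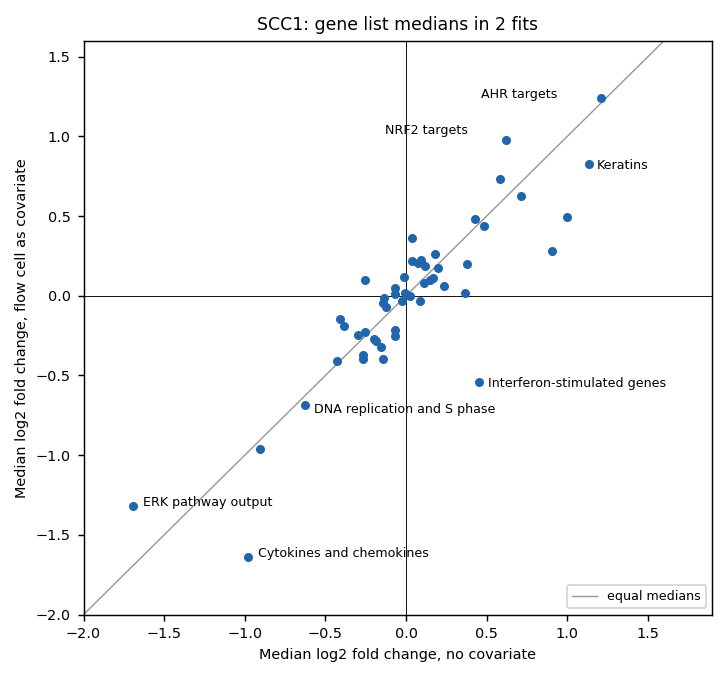
Median log2 fold change of each gene list without a covariate (x axis) and in the flow-cell fit (y axis), with a line of equal medians. Most lists lay near the line, whereas interferon-stimulated genes went from 0.45 to -0.54.

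The response of SCC1 was set against those of 2 other HNSCC lines of the series, SCC6 and SCC25, with 5 cetuximab and 5 PBS libraries each. The titles of SCC6 cetuximab give day 2 for 2 libraries and day 1 for 0. Its days therefore do not match those of SCC1. The change differed from both others in the same direction, with an adjusted p under 0.05 in both contrasts, for 930 of 21414 genes (4.34%), above both for 389 and below both for 541. VIM was such a gene, with a log2 fold change of -3.88 in SCC1, 2.02 in SCC6 and -0.47 in SCC25 (differences -5.91 and -3.42, adjusted p = 6.6e-09 and 3.8e-05). EGFR rose more in SCC1, at 0.58 against 0.11 and 0.09 (adjusted p of the differences 0.0006 and 0.00092). KRT13 stood at 5.63, -0.40 and 0.63 (adjusted p = 5.8e-06 and 8.7e-05), and CYP1A1 at 3.97, 0.37 and 0.92 (adjusted p = 1e-06 and 3.9e-05).

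By list, 12 of 29 ERK output genes, 13 of 45 replication genes, 8 of 24 metalloproteinases and inhibitors, 7 of 27 cytokines and 7 of 17 keratins differed from both lines, above or below. The share over all genes was 4.34%. Such genes numbered 0 of 40 in mitosis, 0 of 34 in ribosome biogenesis and 0 of 40 among interferon-stimulated genes. At a share of 4.34% lists of this size would hold few, so these counts do not show that the lines shared a change. DUSP6 was at -3.19 in SCC1, -1.97 in SCC6 and -1.22 in SCC25 (adjusted p of the differences 0.00016 and 5.2e-07). CDC6 was at -1.006, -0.15 and -0.24 (adjusted p = 2.4e-06 and 3.6e-05), HBEGF at -2.98, -1.98 and -1.04 (adjusted p = 0.02 and 9.7e-05) and MT2A at -2.70, 0.10 and -1.02 (adjusted p = 8e-10 and 6.8e-06). TGFA (-2.02, -1.61 and -0.57) and CSF3 (-6.33, -4.58 and 0.81) did not pass in both contrasts. In a fit that also carried the flow cell, 547 genes differed from both lines.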

How the data were processed

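RNA of the SCC1 cells was purified with TRIzol, and stranded libraries were made after poly(A) enrichment. The authors estimated transcript levels with Salmon and imported them to R with tximport, and the deposited values are estimated counts per gene symbol, not normalised. The submitters' processing notes name Salmon 0.8.2 and the builds hg19 and GRCh37. Neither the annotation version nor the strand setting is given in the sources used here, so overlapping antisense genes may share reads. Fold changes between conditions were not taken from the authors.

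Columns were joined to samples by the flow cell, lane and index in the titles, and 0 of 33 columns were unmapped. Rounded estimated counts were tested with edgeR 4.0.16 in R 4.3.3 (filterByExpr, TMM, robust quasi-likelihood F tests, two-sided) with Benjamini-Hochberg adjustment over 17984 genes, at an adjusted p of 0.05. CPM of single genes used TMM library sizes, and sums over lists used library totals. Neither is corrected for length, so levels are compared between libraries and not between genes. Daily ratios had a pseudocount of 0.1 CPM. Alternatives were DESeq2 1.42.0, other scalings, no filter, a fold threshold, day as a block, the flow cell and leaving out each library. Labels give both treatments the same days. The deviations of same-day libraries from their group means correlated at 0.361, 0.354, 0.14, 0.171 and 0.1 on days 1 to 5 across 10200 genes. The line comparison fitted 6 groups of 30 libraries, and PBS of day 0 was not used here. On simulated counts with known changes in the SCC1 comparison (17984 genes), 85% of 100 genes changed by 1 log2 unit and 97% of 100 changed by 2 were called, all in the right direction, and 0.0619% of unchanged genes were called. No other genes were changed, the spread was that of the PBS libraries, and no flow-cell effect was put in. The simulation therefore does not measure false calls in the real data, where 44.5% of genes were called and the flow cell is confounded.

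Gene lists and members were chosen with earlier results of these data known, so their counts are descriptions. Named genes are the 12 largest called rises and falls (mean log2 CPM 3 or more, the same side on 5 of 5 days), the first 2 members and up to 6 called members with the largest change of each list (mean log2 CPM 1 or more, same side on 5 of 5 days), the 5 largest gains and losses in mean CPM, EGFR, TFAP2A and VIM, and members named as not called. Some genes that this rule names are not reported here. CXCL8, DLL4, EMP1, IFI44L, KRT18, MX1, MYC, SPHK1, SPRED3, TIMP3 and ZEB1 were chosen after their values were seen. So were KRT7, KRT8, KRT19, SNAI2, TIMP1, TIMP2, TIMP4, TWIST1 and ZEB2. Gene positions came from GENCODE on GRCh37 by symbol (34694 of 56470 symbols matched) and promoters from RefSeq on GRCh38.p14.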

Additional observations from a re-analysis of the deposited data

Results flagged for a closer look

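In 3 of 96 groups of 5 libraries whose values were scanned (42 genes, library totals and the sums of 5 gene lists), 1 library lay apart from the other 4 by Dixon's criterion, which by chance flags about 1 in 20 groups. EGR1 was at 8.41 CPM on day 2 of cetuximab, TINCR at 4.87 CPM on day 5 of PBS and H19 at 9931 CPM on day 5 of cetuximab.

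Of 36 genes scanned, those with the largest changes of level or CPM together with EGFR, TFAP2A and VIM, 17 had an SCC1 change that differed from the changes of both SCC6 and SCC25. Over all genes the share was 4.34% (930 of 21414). Most of the 36 were picked for a large change in SCC1, which favours such a difference, so their count is no test of it. The difference in log2 fold change, SCC1 minus SCC6 and SCC1 minus SCC25, was 6.02 and 4.99 for KRT13, 3.55 and 3.80 for ALPP, 2.33 and 3.60 for OLR1, 3.58 and 3.04 for CYP1A1 and 3.48 and 3.15 for AKR1C2. It was 1.61 and 2.57 for TNNT3, 1.54 and 2.82 for NUPR1, 2.26 and 3.12 for MAP2, 2.21 and 2.56 for WNT10A and 0.47 and 0.48 for EGFR. Among genes lower in SCC1, it was -2.34 and -4.81 for AADAC, -5.91 and -3.42 for VIM, -1.24 and -3.07 for PHLDA1, -2.01 and -2.85 for ANTXR2, -1.72 and -2.91 for ANGPTL4, -2.21 and -1.68 for MMP9 and -2.81 and -1.69 for MT2A.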

How the results depend on the processing

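The count of called genes (8005) was 8285 with DESeq2, 8036 with DESeq2 size factors, 8002 with library totals, 7730 without a filter on low counts and 8477 with day as a replicate block, and 7048 to 8269 when 1 library was left out (3439 to 4076 higher, 3603 to 4216 lower). With the flow cell as a covariate it was 4171 (1943 higher, 2228 lower), with the 6 libraries of 1 flow cell 3581 (1572 and 2009), and with a change of 2-fold or more it was 1565 (944 and 621). The 930 genes that differed from both other lines became 547 with the flow cell and 425 with a difference of 2-fold or more, and 728 to 1040 when 1 library was left out. For SCC1 against SCC25 alone the count was 3075, and 4018 with day within line as a replicate block. Among 230 of the genes named, day as a block lost 0 calls and added 3. The flow cell as a covariate ended the call of 29 of them and the 6 libraries that of 42, and leaving out 1 library ended 0.

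List medians that changed sign included those of metalloproteinases (-0.252, then 0.1 with the flow cell and 0.084 with 6 libraries), interferon-stimulated genes (0.45, then -0.539 and -0.555), MHC class I (0.365, then -0.001 with 6 libraries), fatty acid genes (0.086, then -0.031, -0.047 and, without PBS of day 1, -0.002), the respiratory chain (-0.067, then 0.008 with the flow cell), long noncoding RNAs (-0.014, then 0.118, 0.102 and, when 1 library was left out, -0.106 without cetuximab of day 1 to 0.071 without PBS of day 1) and endothelial markers (0.102, then -0.114 and -0.13, and from -0.196 without cetuximab of day 1 to 0.168 without that of day 3). With the flow cell, the small medians of S100 proteins (-0.069 to 0.05), integrated stress response genes (0.027 to -0.003) and other receptor tyrosine kinases (-0.006 to 0.015) also changed sign. The cause was not tested. PBS of day 5 is the 1 PBS library that the flow-cell fit and the 6 libraries rest on, so both read a lone library, assumed to vary like the others. Genes with few counts, such as CSF2 and ESM1 with cetuximab, are limited by depth, and changes of genes under the filter were not detectable.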
